A study of Mus musculus with 9 samples.

Results

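The transcripts of *Trp53*, which encodes the transcription factor p53, and of 8 of its target genes were measured in the mouse multiple myeloma line 5TGM1-Cas9. The genes were chosen by name, namely *Trp53*, *Mdm2*, *Cdkn1a*, *Ccng1*, *Trp53inp1*, *Zmat3*, *Fas*, *Ei24* and *Phlda3*, and make up 9 of the 53077 genes in the deposited tables. All 9 were listed in every sample, and 8 of them passed the filter on low counts, the exception being *Phlda3*. RNA came from 3 populations with 3 biological replicates each. All of the populations expressed Cas9 from a lentivirus and all received at least 1 gRNA with a target in the mouse genome. The control gRNA targeted the *Rosa26* locus, and the Slc2a1 population, of genotype Slc2a1 KO in the labels, received a gRNA against the glucose transporter gene *Slc2a1*. The Slc2a1/3/5/6/8 population, of genotype Slc2a1/2a3/2a5/2a6/2a8 KO in the labels, received gRNAs against 5 transporter genes of that family. Cells carrying the gRNAs against *Slc2a3*, *Slc2a5*, *Slc2a6* and *Slc2a8* were first sorted on fluorescent reporters and expanded as a line, and the *Slc2a1* gRNA was added afterwards. Both deleted populations were bulk cultures in which edited and unedited alleles coexisted, so that they are not clones. The gRNAs targeted 1 locus in the control population, 1 in the Slc2a1 population and 5 in the Slc2a1/3/5/6/8 population, the extent of cutting at *Rosa26* is not given in the sources used here, and the sorting and expansion went with the last of these.

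A DNA double-strand break activates the kinases ATM and ATR, which act through CHEK2 and CHEK1 to release p53 from its ubiquitin ligase MDM2. The stabilised p53 protein then binds DNA and raises the transcription of genes for cell cycle arrest, DNA repair and apoptosis, and of *Mdm2* itself, which closes a negative feedback loop. Control of p53 acts mainly on the protein, which was not measured here, so that its activity is usually read from the transcripts of its targets. Cells cut by Cas9 can mount this response, and myeloma cells often carry lesions of the p53 pathway.

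The p53 protein binds as a tetramer to pairs of a 10-base motif, the p53 half-site decamer, and the promoter sequences of the genes show where the motif occurs near a start site. RefSeq promoter windows on GRCm38.p6, from 250 bases before to 50 after a start, matched 7 of the 9 genes by symbol in 8 windows, since *Cdkn1a* has a pair of starts. No window was listed for *Trp53inp1* or *Zmat3*. The decamer, which reads as the same motif on both strands, occurred in the windows of *Trp53*, *Mdm2*, *Ccng1* and *Ei24* and in the upstream window of *Cdkn1a*. Of 32851 mouse windows searched in the same way, 8.36% held at least 1 decamer. Adjoining half-sites over 20 bases with at most 1 mismatch were found in the upstream *Cdkn1a* window, in the *Ccng1* window and in 0.0883% of all windows. The sequences below are written 5′ to 3′ on the strand of the gene. In the *Cdkn1a* and *Ccng1* sequences the capitals mark the 20 bases of adjoining half-sites, and in the *Mdm2*, *Trp53* and *Ei24* sequences they mark a single half-site. The *Cdkn1a* sequence holds a further single half-site, left in lower case, at chr17:29090906-29090915.
Cdkn1a, chr17:29090898-29090977, plus strand: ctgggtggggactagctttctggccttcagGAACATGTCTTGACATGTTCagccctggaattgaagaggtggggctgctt
Ccng1, chr11:40755432-40755511, minus strand: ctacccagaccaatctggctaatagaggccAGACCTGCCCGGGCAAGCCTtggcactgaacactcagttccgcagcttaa
Mdm2, chr10:117710905-117710974, minus strand: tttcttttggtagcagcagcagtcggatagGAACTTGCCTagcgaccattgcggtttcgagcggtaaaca
Trp53, chr11:69580254-69580323, plus strand: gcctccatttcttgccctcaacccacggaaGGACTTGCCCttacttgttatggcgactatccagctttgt
Ei24, chr9:36797335-36797344, minus strand: GGGCATGCCC
The motif and the windows were chosen after the expression values were seen, a match describes letters and not binding, and the absence of a match in *Fas* or *Phlda3* says only that these letters are not in that window.

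Estimated counts summed to between 21838805 and 30537105 per sample, and mitochondrial genes took 4.84 to 11.1% of them, the highest share being in Slc2a1/3/5/6/8 replicate 1. Replicates of a group differed by more than sampling noise. Of 8 plasma cell markers, 6 averaged 1 TPM or more in every group, while *Cd38* had at most 2 estimated counts in a sample and *Tnfrsf17*, the BCMA gene, at most 24. None of 14 markers of B cells, T cells, myeloid, stromal or erythroid cells reached a mean of 1 TPM in any group, and their summed TPM was 1.13 to 2.07 in the control, 0.948 to 2 in the Slc2a1 and 0.603 to 1.23 in the Slc2a1/3/5/6/8 samples. The plasma cell marker *Jchain*, the joining chain of secreted antibody, was lower in the Slc2a1 cultures by a log2 fold change of -1.33 (adjusted p = 0.00529 by edgeR's quasi-likelihood test) and higher in the Slc2a1/3/5/6/8 cultures by 0.59 (adjusted p = 0.0348), and its part in the results below was not tested. The first of these adjusted p-values was 0.0532 without control replicate 2 and 0.0519 with limma on log2(TPM + 1), and the second was 0.0743 to 0.147 without any one control sample or Slc2a1/3/5/6/8 replicate 1 or 2, 0.065 with total count normalization and 0.218 with limma on TPM. The log2 fold change of the *Slc2a1* transcript was -0.21 (adjusted p = 0.544) in the Slc2a1 cultures. It was -0.66 (adjusted p = 0.029) in the Slc2a1/3/5/6/8 cultures, where leaving out the block gave 0.101 and the adjusted p was 0.19 to 0.199 with limma on TPM and 0.0767 to 0.222 without control replicate 1 or 3 or Slc2a1/3/5/6/8 replicate 1 or 3. In those cultures the log2 fold change was -1.22 for *Slc2a8* (adjusted p = 0.000309), -0.67 for *Slc2a6* (adjusted p = 0.0366) and 0.27 for *Slc2a3* (adjusted p = 0.259), whereas *Slc2a5* was higher by 2.65 (adjusted p = 0.00478), with 29 to 51 estimated counts against 6 to 10 in the control samples. The study, with a paired test on the same RNA sequencing, reports a significant fall of the *Slc2a1* transcript in the deleted cultures. It reports no noticeable change of the other members of the family. Its further evidence of deletion is GLUT1 staining, uptake of radioactive glucose and frameshift mutations. Small insertions and deletions need not remove a transcript, so that the transcript values are a weak check of the labels.

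In control cells, *Cdkn1a* was the most abundant of the 9 transcripts and *Phlda3* the least. The TPM, which corrects for gene length, was 183 ± 20.7 (SD, n = 3) for *Cdkn1a*, above 98.3% of the 26480 genes with a count in any sample. *Trp53inp1* followed at 87.9 ± 22.9 TPM, *Trp53* at 65.3 ± 4.41 TPM and *Mdm2* at 58.1 ± 18.8 TPM (SD, n = 3 each). The ranges of the replicates overlapped between neighbours among these last 3 genes, so that their order is not resolved. *Ei24* had 25.2 ± 4.51 TPM, and *Ccng1* with 13.1 ± 2.25 TPM and *Zmat3* with 10.4 ± 1.38 TPM had overlapping ranges (SD, n = 3 each). *Fas* had 6.61 ± 0.801 TPM (SD, n = 3), above 70.8% of genes. The transcripts of p53, of its ligase and of the arrest gene *Cdkn1a* were thus all in the upper part of the distribution before any deletion of a transporter gene.

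The comparison of each deleted population with the control asks which of these transcripts changed with the deletion. Counts were compared as normalized CPM, that is, estimated counts scaled to the TMM-adjusted library size, with edgeR's quasi-likelihood test. The threshold was a Benjamini-Hochberg adjusted p under 0.05 over 13834 genes, and the replicate number was a block. Both comparisons share the control samples. With the *Slc2a1* gRNA, *Mdm2* and *Fas* fell and no tested member rose at this threshold, 2 of 8 in all, where 4.64% of all genes tested were called. With the Slc2a1/3/5/6/8 gRNAs, *Trp53* and *Trp53inp1* rose and no tested member fell, again 2 of 8, where 15.9% of all genes were called. *Cdkn1a* did not pass the test in either comparison and lay below every control replicate in both. The median log2 fold change of the 8 genes was -0.14 with the *Slc2a1* gRNA and 0.16 with the Slc2a1/3/5/6/8 gRNAs, beside medians of 0.00 and 0.01 over all genes tested. An unadjusted p under 0.05 was reached by 4 of 8 genes in each comparison, beside 22% of all genes tested with the *Slc2a1* gRNA and 31.4% with the Slc2a1/3/5/6/8 gRNAs.

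**Figure D1:**
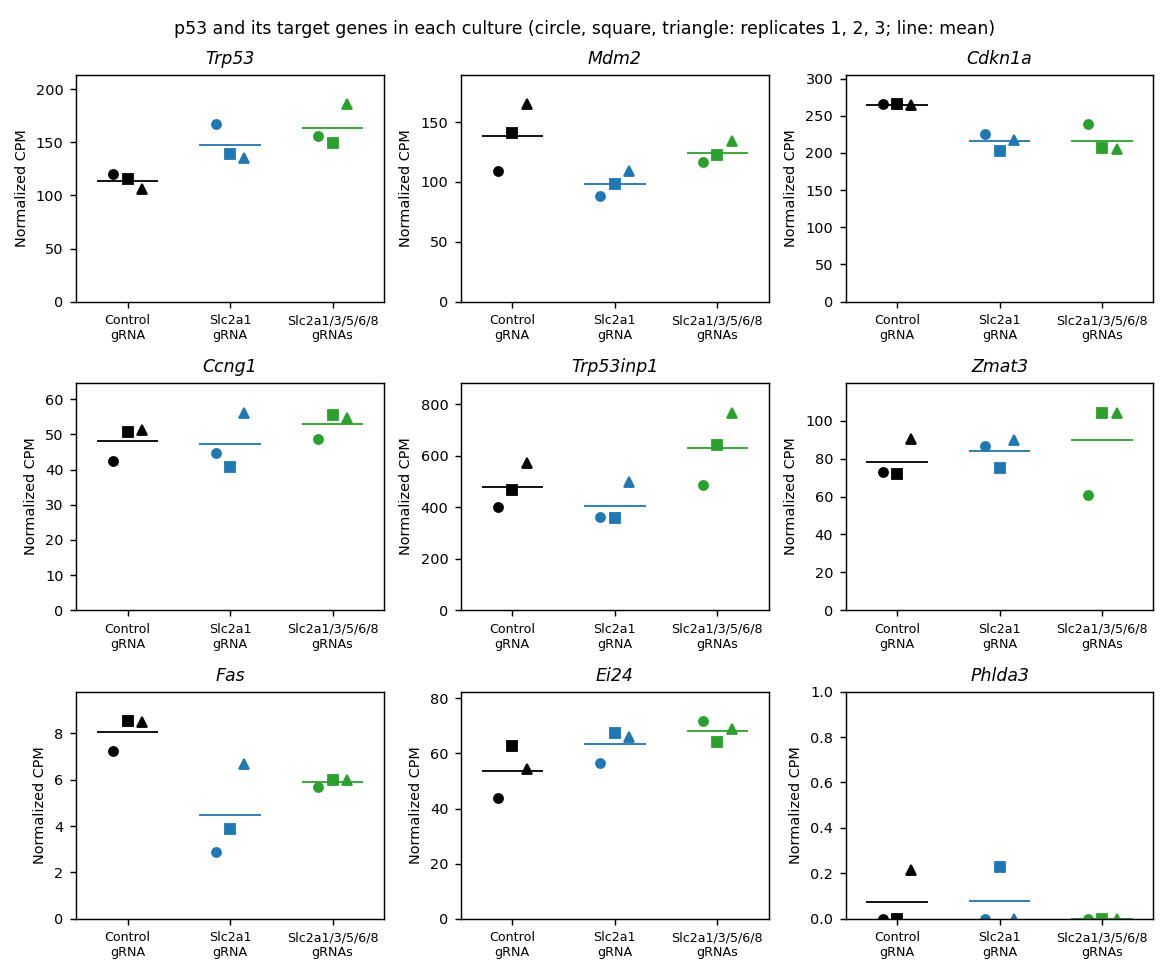
Normalized CPM of each of the 9 genes (vertical axis, from 0) in the control, Slc2a1 and Slc2a1/3/5/6/8 cultures (horizontal axis), with circles, squares and triangles for replicates 1, 2 and 3 and a line at the group mean. *Trp53* lies above the control samples in all 6 deleted cultures and *Cdkn1a* below them, while the *Phlda3* axis ends at 1.

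Whether groups overlapped was also read, for genes past the threshold and for genes that missed it. Every Slc2a1 replicate of *Trp53* was above every control replicate, an outcome found for 13.2% of all genes tested. Every Slc2a1 replicate of *Cdkn1a*, *Mdm2* and *Fas* was below every control replicate, as for 13% of all genes. Among the Slc2a1/3/5/6/8 cultures *Trp53* and *Ei24* were wholly above the control, as for 17% of all genes, and *Cdkn1a* and *Fas* wholly below it, as for 17.2%. These ranges show the spread between the 3 replicates of a group. The edgeR p-values of the main analysis rest instead on the scatter left after the replicate block, in a fit of all samples together. In RNA from bulk cultures, fewer cells that express a gene and less RNA per cell cannot be told apart.

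*Trp53* lies on chr11:69580359-69591873 (plus strand, GRCm38), and none of its exonic bases overlaps another gene in GENCODE M21. In replicates 1, 2 and 3 its level was 120, 116 and 106 normalized CPM in the control, 168, 139 and 135 in the Slc2a1 cultures, and 156, 150 and 186 in the Slc2a1/3/5/6/8 cultures. On this scale the lowest deleted culture was above the highest control culture, whereas the deleted populations overlapped each other. In TPM the control samples had 60.4 to 69, the Slc2a1 samples 66.5 to 87.3 and the Slc2a1/3/5/6/8 samples 70.3 to 117, so that the Slc2a1 samples overlapped the control. With the Slc2a1/3/5/6/8 gRNAs *Trp53* rose by a log2 fold change of 0.53 (SE 0.12, 95% interval 0.26 to 0.80), or 1.44-fold, with an adjusted p of 0.0152 by edgeR's quasi-likelihood test. This call was lost without control replicate 1 (adjusted p = 0.0839), control replicate 3 (0.112) or Slc2a1/3/5/6/8 replicate 3 (0.0888), and on the TPM scale with limma (0.156 to 0.162). With the *Slc2a1* gRNA alone the log2 fold change was 0.37 (95% interval 0.10 to 0.64, adjusted p = 0.108), and it passed the threshold with DESeq2 (0.0449) and when only the control and Slc2a1 samples were fitted (0.0104). The difference between the deleted populations was 0.16 (95% interval -0.11 to 0.43, adjusted p = 0.529).

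*Mdm2* encodes the ubiquitin ligase that marks p53 for degradation and is itself a p53 target. It lies on chr10:117688875-117710758 (minus strand, GRCm38) with no exonic overlap. Control replicates 1, 2 and 3 had 109.3, 141 and 165 normalized CPM, the Slc2a1 cultures 88.0, 98.0 and 108.9, and the Slc2a1/3/5/6/8 cultures 117, 122 and 134. The Slc2a1 range ended just under the control range, and the Slc2a1/3/5/6/8 values lay within the control range. In each population replicate 3 was the highest and replicate 1 the lowest, a spread that the replicate block takes up. *Mdm2* fell in the Slc2a1 cultures by a log2 fold change of -0.48 (SE 0.11, 95% interval -0.72 to -0.25, adjusted p = 0.0306 by edgeR). Without the block the adjusted p was 0.0715, and it lay between 0.0698 and 0.21 when any of the 6 control and Slc2a1 samples was left out. With limma on TPM it was 0.115 to 0.119. In TPM the Slc2a1 samples reached 51.2 and the lowest control sample had 41.2, so that on that scale the groups overlapped. With the Slc2a1/3/5/6/8 gRNAs the log2 fold change was -0.14 (95% interval -0.38 to 0.10, adjusted p = 0.41). Every Slc2a1/3/5/6/8 replicate was above every Slc2a1 replicate, as for 10.6% of all genes (10.3% were wholly lower), with a difference of 0.34 (95% interval 0.10 to 0.58) that did not pass the threshold (adjusted p = 0.114).

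*Cdkn1a* encodes p21, the inhibitor of cyclin-dependent kinases through which p53 arrests the cell cycle. Its upstream promoter window holds the 20-base pair of half-sites printed above, 51 bases before the upstream RefSeq start, and its other window holds no half-site. The gene lies on chr17:29090976-29100727 (plus strand, GRCm38), and 7.68% of its exonic bases overlap *AC167363.2* on the other strand. Its level was 266, 265 and 264 normalized CPM in control replicates 1, 2 and 3. It was 226, 203 and 218 in the Slc2a1 cultures and 238, 206 and 205 in the Slc2a1/3/5/6/8 cultures. The control replicates were nearly equal, and all 6 deleted cultures were below them. TPM values were also separate, at 170 to 207 in the control, 112 to 148 in the Slc2a1 and 128 to 154 in the Slc2a1/3/5/6/8 samples. The log2 fold change was -0.30 in each deleted population, with 95% intervals of -0.53 to -0.07 and -0.52 to -0.07 and edgeR adjusted p-values of 0.117 and 0.0727. DESeq2 gave adjusted p-values of 0.0415 and 0.0256, and without Slc2a1/3/5/6/8 replicate 1 the edgeR value in that population was 0.0452. The edgeR value with the *Slc2a1* gRNA was 0.0264 with only the 2 groups compared, and that with the Slc2a1/3/5/6/8 gRNAs was 0.0498 with at least 10 counts in every sample. Neither of the 95% intervals reached a *Cdkn1a* level above the control, but they are intervals for a single gene, not adjusted over the genes tested. Between the deleted populations the difference was 0.00 (95% interval -0.22 to 0.23, adjusted p = 0.986).

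*Ccng1* encodes cyclin G1, which helps a phosphatase to activate MDM2, and it lies on chr11:40748552-40755311 (minus strand, GRCm38). Its level was 42.4, 50.7 and 51.2 normalized CPM in the control, 44.6, 40.7 and 56.2 in the Slc2a1 and 48.7, 55.5 and 54.5 in the Slc2a1/3/5/6/8 replicates. The 3 ranges overlapped. The log2 fold change was -0.03 (95% interval -0.28 to 0.22, adjusted p = 0.91) with the *Slc2a1* gRNA and 0.14 (95% interval -0.11 to 0.39, adjusted p = 0.443) with the Slc2a1/3/5/6/8 gRNAs. Although its promoter window resembles the upstream window of *Cdkn1a* in holding a 20-base pair of half-sites, its control samples did not stand apart from the deleted ones.

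*Trp53inp1* encodes a stress-induced protein that favours autophagy and p53-dependent cell death, and it lies on chr4:11156431-11174379 (plus strand, GRCm38). Control replicates 1, 2 and 3 had 402, 467 and 572 normalized CPM, the Slc2a1 cultures 361, 357 and 499, and the Slc2a1/3/5/6/8 cultures 485, 640 and 767. The ranges overlapped in all comparisons, and replicate 3 was again the highest of each population. Within each replicate number, however, the order was the same, with the Slc2a1 culture lowest and the Slc2a1/3/5/6/8 culture highest. With the replicate block *Trp53inp1* rose in the Slc2a1/3/5/6/8 cultures by a log2 fold change of 0.39 (SE 0.11, 95% interval 0.14 to 0.63, adjusted p = 0.0392 by edgeR), or 1.31-fold. Without the block the adjusted p was 0.175, with total count normalization 0.0866, and it lay between 0.0501 and 0.185 without any one of the control samples, of Slc2a1 replicates 2 and 3 or of Slc2a1/3/5/6/8 replicates 2 and 3. It was 0.0509 with only the 2 groups compared and 0.359 to 0.362 with limma on TPM. In the Slc2a1 cultures the log2 fold change was -0.24 (95% interval -0.49 to 0.00, adjusted p = 0.234).

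The direct comparison of the deleted populations asks what the 4 further gRNAs, and the sorting that went with them, added to the *Slc2a1* gRNA. *Trp53inp1* was the 1 gene of 8 that passed, where 2.31% of all genes tested were called, 1.36% higher and 0.947% lower. It was higher in the Slc2a1/3/5/6/8 than in the Slc2a1 cultures by a log2 fold change of 0.63 (SE 0.11, 95% interval 0.38 to 0.88), or 1.55-fold, in 3 of 3 same-numbered pairs (adjusted p = 0.016 by edgeR). Deviations of same-numbered samples from their group means had correlations of -0.15, -0.11 and -0.04 here, so that the numbers were not shown to pair these cultures. The adjusted p was 0.125 without the block, 0.113 with only these populations fitted, 0.134 to 0.157 with limma on TPM, 0.151 without Slc2a1 replicate 2 and 0.0624 without Slc2a1 replicate 3. The median difference of the 8 genes was 0.16, beside 0.00 over all genes tested, and 2 of the 8 had an unadjusted p under 0.05, beside 19.1% of all genes.

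**Figure D2:**
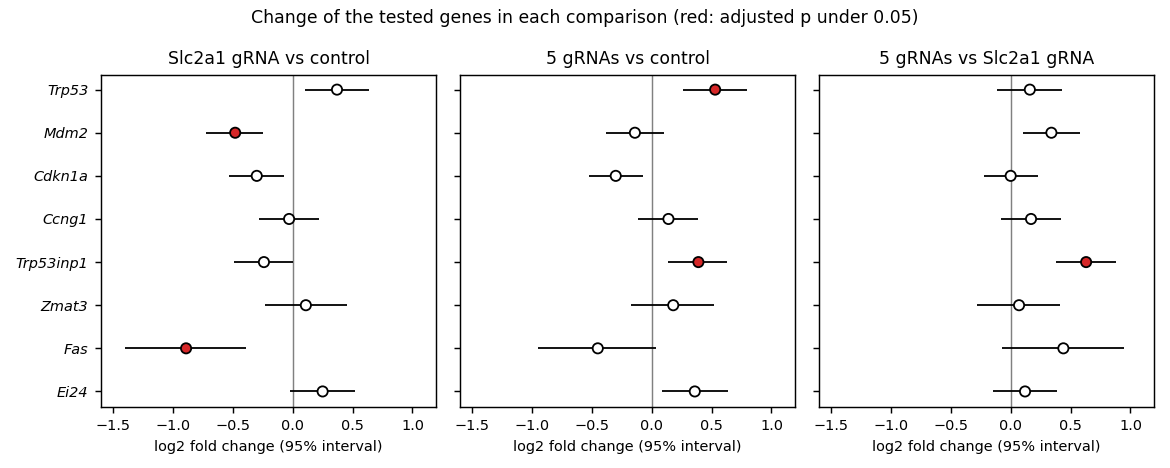
Log2 fold change (horizontal axis) of the 8 tested genes in the 3 comparisons, with 95% intervals as lines and genes past an adjusted p of 0.05 in red. *Cdkn1a* sits at -0.30 in both comparisons with the control, and *Trp53inp1* is the red gene in the comparison of the deleted populations.

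*Zmat3* encodes an RNA-binding protein that p53 induces, and it lies on chr3:32334792-32366014 (minus strand, GRCm38). Its level was 72.9, 71.8 and 90.3 normalized CPM in the control, 86.7, 75.2 and 89.9 in the Slc2a1 and 60.6, 104 and 104 in the Slc2a1/3/5/6/8 replicates. Slc2a1/3/5/6/8 replicate 1 was the lowest of the 9 samples, and the other two replicates of that population were the highest. The log2 fold change with the Slc2a1/3/5/6/8 gRNAs was 0.18 (95% interval -0.17 to 0.52, adjusted p = 0.474 by edgeR), and it was 0.40 without replicate 1 of that population (adjusted p = 0.0353) and -0.02 without replicate 2. Replicate 1 also had the highest mitochondrial share of the 9 samples, and the part of that difference in the *Zmat3* value was not tested. With the *Slc2a1* gRNA the log2 fold change was 0.11 (95% interval -0.23 to 0.45, adjusted p = 0.742).

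*Fas* encodes a death receptor on the cell surface and lies on chr19:34290666-34327772 (plus strand, GRCm38). In replicates 1, 2 and 3 its level was 7.23, 8.53 and 8.48 normalized CPM in the control, 2.89, 3.88 and 6.68 in the Slc2a1 cultures, and 5.67, 5.98 and 5.99 in the Slc2a1/3/5/6/8 cultures. On this scale every deleted culture was below every control culture, and Slc2a1 replicate 3 was closer to the control than the other two replicates of its group. In TPM the Slc2a1 samples, at 2.3 to 4.9, lay below the control samples, at 5.88 to 7.47, and the Slc2a1/3/5/6/8 samples, at 3.95 to 6.27, overlapped them. These values rest on 60 to 163 estimated counts in the Slc2a1 samples and 207 to 277 in the control samples. *Fas* fell in the Slc2a1 cultures by a log2 fold change of -0.89 (SE 0.23, 95% interval -1.40 to -0.39), to 0.539 of the control level, with an adjusted p of 0.0485 by edgeR. The adjusted p was 0.0862 without the block, 0.0861 to 0.0966 with limma on TPM, 0.0518 without Slc2a1/3/5/6/8 replicate 2 and 0.13 to 0.243 without any one of the control samples or of Slc2a1 replicates 1 and 2. In the Slc2a1/3/5/6/8 cultures the log2 fold change was -0.45 (95% interval -0.95 to 0.04, adjusted p = 0.195), and the deleted populations differed by 0.44 (95% interval -0.07 to 0.95, adjusted p = 0.338).

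*Ei24* encodes a protein of the endoplasmic reticulum induced during p53-dependent cell death, and it lies on chr9:36779159-36797393 (minus strand, GRCm38), where 6.66% of its exonic bases overlap *Gm26787* on the other strand. Control replicates 1, 2 and 3 had 43.9, 62.6 and 54.3 normalized CPM, the Slc2a1 cultures 56.7, 67.3 and 66.1, and the Slc2a1/3/5/6/8 cultures 71.7, 64.1 and 69.0. On this scale the Slc2a1/3/5/6/8 cultures were above all control samples, and the Slc2a1 cultures overlapped the control. In TPM the Slc2a1/3/5/6/8 samples, at 26.2 to 34.2, overlapped the control samples, at 20.1 to 28.4. The log2 fold change was 0.36 with the Slc2a1/3/5/6/8 gRNAs (95% interval 0.09 to 0.64, adjusted p = 0.0651 by edgeR) and 0.25 with the *Slc2a1* gRNA (95% interval -0.02 to 0.52, adjusted p = 0.269). Without Slc2a1/3/5/6/8 replicate 1 the former value was 0.22 (adjusted p = 0.233), and it passed the threshold without replicate 2 of that population (0.50, adjusted p = 0.0277), with DESeq2 (0.0452) and with no filter on low counts (0.0392).

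*Phlda3* encodes an inhibitor of AKT signalling that p53 induces, and it lies on chr1:135766119-135769136 (plus strand, GRCm38). It had 7 estimated counts in control replicate 3, 5 in Slc2a1 replicate 2 and 0 in the other samples. At these depths 3 estimated counts correspond to 0.11 to 0.22 TPM, which covers counting error only. A response of *Phlda3* below that level was not detectable, and the gene was not tested in the main analysis. With no filter on low counts it was not called in any comparison, and those fits rest on the same few counts.

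**Figure D3:**
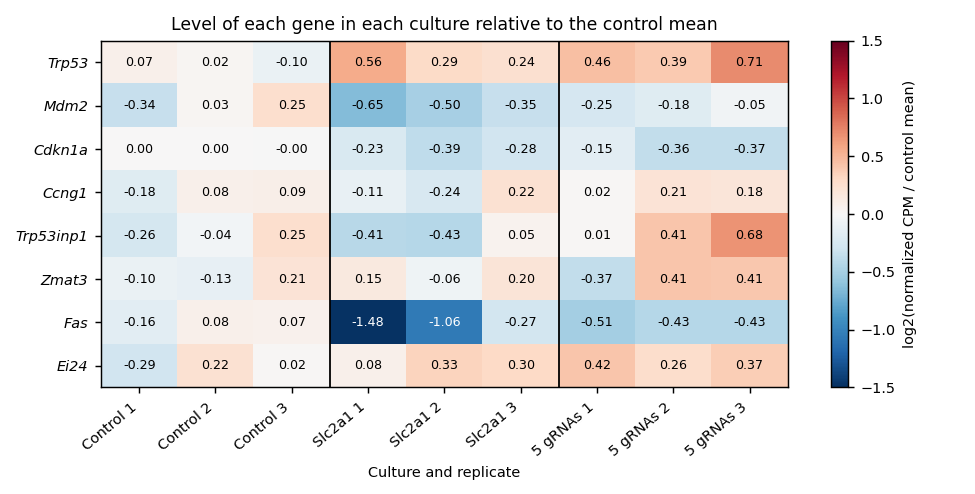
Level of the 8 tested genes (rows) in each of the 9 cultures (columns), as log2 of normalized CPM over the control mean, with red for higher and blue for lower values. *Trp53* and *Ei24* are above 0 and *Cdkn1a*, *Fas* and *Mdm2* below 0 in all deleted cultures, with the lowest *Fas* value, -1.48, in Slc2a1 replicate 1.

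Across the 9 samples the correlation of *Trp53* was negative with 3 of the 7 tested targets and positive with the other 4. It was weak with *Zmat3*, *Trp53inp1* and *Ccng1*. Pearson's r of log2 normalized CPM was -0.74 between *Trp53* and *Cdkn1a*, -0.64 between *Trp53* and *Fas* and -0.45 between *Trp53* and *Mdm2*. It was 0.53 between *Trp53* and *Ei24*, 0.28 with *Zmat3*, 0.23 with *Trp53inp1* and 0.12 with *Ccng1*. Among the targets, r was 0.84 between *Ccng1* and *Trp53inp1*, 0.83 between *Mdm2* and *Fas*, 0.69 between *Mdm2* and *Trp53inp1* and 0.42 between *Cdkn1a* and *Mdm2*. These coefficients are descriptions, since the samples share group, replicate number and library. Among 10833 genes with a mean of at least 1 TPM, those with the highest r to *Trp53* were *Cct6a* (0.992), a subunit of the chaperonin TRiC, *Rbm45* (0.987) and *Eif4a3* (0.984), a core protein of the exon junction complex. Those with the highest r to *Cdkn1a* were *E330020D12Rik* (0.971), *Tsg101* (0.966), a component of the ESCRT-I complex, and *Dcaf15* (0.965), a substrate receptor of a ubiquitin ligase.

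Other genes of the pathway were read from lists of regulators and targets of p53, and the genes named are those past the threshold with the smallest adjusted p, up to 4 in a list and comparison. *Cdkn2a*, which was not tested, is named besides. Of 15 listed regulators, 13 were tested. Their log2 fold changes with the *Slc2a1* gRNA lay between -0.40 and 0.17, with a smallest adjusted p of 0.0756 and an unadjusted p under 0.05 for 3 of the 13, beside 22% of all genes. A single regulator rose and 1 fell with the Slc2a1/3/5/6/8 gRNAs, 2 of 13 where 15.9% of all genes were called. *Rchy1*, which encodes a ubiquitin ligase for p53, had 53, 59.5 and 63.6 normalized CPM in the control and 93.6, 75.9 and 76.5 in the Slc2a1/3/5/6/8 replicates, a log2 fold change of 0.48 (adjusted p = 0.0188 by edgeR). It was also higher than in the Slc2a1 cultures, by 0.55 (adjusted p = 0.0348). The call against the control was lost without any one control sample or Slc2a1/3/5/6/8 replicate 1 (adjusted p = 0.0508 to 0.174), and that between the deleted populations without control replicate 2 or 3, any one Slc2a1 sample or Slc2a1/3/5/6/8 replicate 1 or 2 (0.0633 to 0.174) and with only the 2 groups compared (0.111). *Mdm4*, which encodes the partner of MDM2 that masks the activation domain of p53, had 156, 164 and 175 normalized CPM in the control and 109, 138 and 118 in the Slc2a1/3/5/6/8 replicates, a log2 fold change of -0.44 (adjusted p = 0.0275, 0.0508 without the block, and 0.0736 to 0.192 without any one control sample or Slc2a1/3/5/6/8 replicate 3). With limma on TPM the regulators' calls were also lost, at an adjusted p of 0.159 to 0.171 for *Rchy1* and 0.114 to 0.116 for *Mdm4*. *Cdkn2a*, whose ARF product inhibits MDM2, had at most 4 estimated counts in a sample.

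Of 52 further targets of p53, 38 were tested, and genes rose and fell in equal number in each comparison with the control. With the *Slc2a1* gRNA 2 rose and 2 fell, with a median log2 fold change of -0.01, where 2.25% of all genes rose and 2.39% fell. Among the Slc2a1/3/5/6/8 cultures 4 rose and 4 fell, with a median of 0.04, where 8.49% of all genes rose and 7.44% fell. The rest of the 38 did not pass. The equal split depended on single samples. With the Slc2a1/3/5/6/8 gRNAs 3 of 4 called targets were higher without control replicate 1, 5 of 5 without control replicate 2, 4 of 5 without control replicate 3 and 3 of 5 without Slc2a1/3/5/6/8 replicate 3. With the *Slc2a1* gRNA alone the 1 target called was higher without any one control sample or Slc2a1 replicate 1 or 2, and 4 of 6 were higher without Slc2a1 replicate 3 or Slc2a1/3/5/6/8 replicate 1. Of the 38, a single target, *Bbc3*, differed between the deleted populations, where 2.31% of all genes were called, 1.36% higher and 0.947% lower. It was higher with the Slc2a1/3/5/6/8 gRNAs by a log2 fold change of 0.53 (adjusted p = 0.0348 by edgeR), a call that was lost without the block (0.0572) and without any one sample other than Slc2a1/3/5/6/8 replicate 3 (0.0623 to 0.102), with only the 2 groups compared (0.141) and with limma on TPM (0.137 to 0.155).

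Among the 8 tested targets with roles in apoptosis, the changes in the Slc2a1/3/5/6/8 cultures went both ways. *Bbc3*, which encodes the BH3-only protein PUMA, had 67.8, 61.0 and 74.9 normalized CPM in the control, 65.3, 75.5 and 80.6 in the Slc2a1 and 114, 98.8 and 106 in the Slc2a1/3/5/6/8 replicates. It rose in the last of these by a log2 fold change of 0.65 (adjusted p = 0.00373 by edgeR), and the Slc2a1 cultures overlapped the control. *Aen*, which encodes a nuclease of apoptotic cells, rose by 0.66 (adjusted p = 0.00807), from 49.1, 53.8 and 58.0 to 79.4, 74.6 and 101 normalized CPM. *Pidd1*, an adaptor for caspase-2 activation, fell by a log2 fold change of -0.63 (adjusted p = 0.0142), and *Apaf1*, the scaffold of the apoptosome, by -0.39 (adjusted p = 0.041, and 0.055 without the block). The call of *Aen* was lost without control replicate 1 (adjusted p = 0.0694) or Slc2a1/3/5/6/8 replicate 3 (0.0556), and that of *Pidd1* without any one control sample or Slc2a1/3/5/6/8 replicate 2 (0.0529 to 0.0989). That of *Apaf1* was lost without any one control sample, Slc2a1 replicate 2 or 3 or Slc2a1/3/5/6/8 replicate 1 or 3 (0.0537 to 0.205) and with no filter on low counts (0.0608). With limma on TPM all 4 calls against the control were lost, at adjusted p-values of 0.0944 to 0.0954 for *Bbc3*, 0.33 to 0.332 for *Aen*, 0.0747 to 0.0768 for *Pidd1* and 0.13 to 0.145 for *Apaf1*, and the log2 fold change of *Aen* was then 0.35 to 0.36. With the *Slc2a1* gRNA the smallest adjusted p in this list was 0.0782, and 3 of 8 genes had an unadjusted p under 0.05, beside 22% of all genes.

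Of the 14 tested targets with roles in metabolism and stress, *Ddit4* moved most clearly in both deleted populations. *Ddit4* encodes an inhibitor of the growth kinase mTORC1 that is induced by several stresses besides p53. It had 105, 76.8 and 61.1 normalized CPM in the control, 194, 173 and 148 in the Slc2a1 and 192, 162 and 162 in the Slc2a1/3/5/6/8 replicates. All deleted cultures were above all control cultures, with log2 fold changes of 1.11 (adjusted p = 0.0033 by edgeR) and 1.12 (adjusted p = 0.000204). Groups were wholly higher for 13.2% of all genes tested with the *Slc2a1* gRNA and 17% with the Slc2a1/3/5/6/8 gRNAs. Both comparisons use the same control samples. *Sesn2*, a stress-induced inhibitor of mTORC1, rose in the Slc2a1/3/5/6/8 cultures by 0.77 (adjusted p = 0.00339), from 148, 141 and 194 to 217, 271 and 336 normalized CPM. *Ulk1*, the kinase that starts autophagy, fell in the Slc2a1 cultures by a log2 fold change of -0.45 (adjusted p = 0.0332) and in the Slc2a1/3/5/6/8 cultures by -0.38 (adjusted p = 0.03). The first of these *Ulk1* calls was lost without any one control sample or Slc2a1 replicate 1 or 2 (adjusted p = 0.104 to 0.226), and the second without any one control sample or Slc2a1/3/5/6/8 replicate 1 or 3 (0.0534 to 0.201). With limma on TPM the calls of *Sesn2* (0.0887 to 0.0968) and *Ulk1* (0.0898 to 0.0992 over both comparisons) were lost, as was that of *Ddit4* with the *Slc2a1* gRNA on log2(TPM + 1) (0.0598).

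Among the 6 tested targets with roles in cell cycle arrest, *Sfn*, which encodes 14-3-3 sigma, rose in the Slc2a1 cultures by a log2 fold change of 0.71 (adjusted p = 0.0296 by edgeR), from 7.36 to 9.12 normalized CPM in the control to 11.8 to 16.1. Without any one control sample or Slc2a1 replicate 1 or 2 its adjusted p was 0.0962 to 0.167. *Gtse1*, a gene of the G2 and S phases whose protein moves p53 out of the nucleus, fell in the Slc2a1/3/5/6/8 cultures by -0.57 (adjusted p = 0.011, and 0.0815 without control replicate 2). Of the 8 tested repair genes, *Ercc5*, an endonuclease of nucleotide excision repair, fell in the Slc2a1 cultures by a log2 fold change of -0.48 (adjusted p = 0.0399, and 0.135 to 0.234 without any one control sample or Slc2a1 replicate 1 or 2). With the Slc2a1/3/5/6/8 gRNAs the smallest adjusted p among the repair genes was 0.0614, and 3 of 8 had an unadjusted p under 0.05, beside 31.4% of all genes. With limma on TPM the adjusted p was 0.273 to 0.285 for *Sfn*, 0.108 to 0.114 for *Gtse1* and 0.14 to 0.153 for *Ercc5*.

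**Figure D4:**
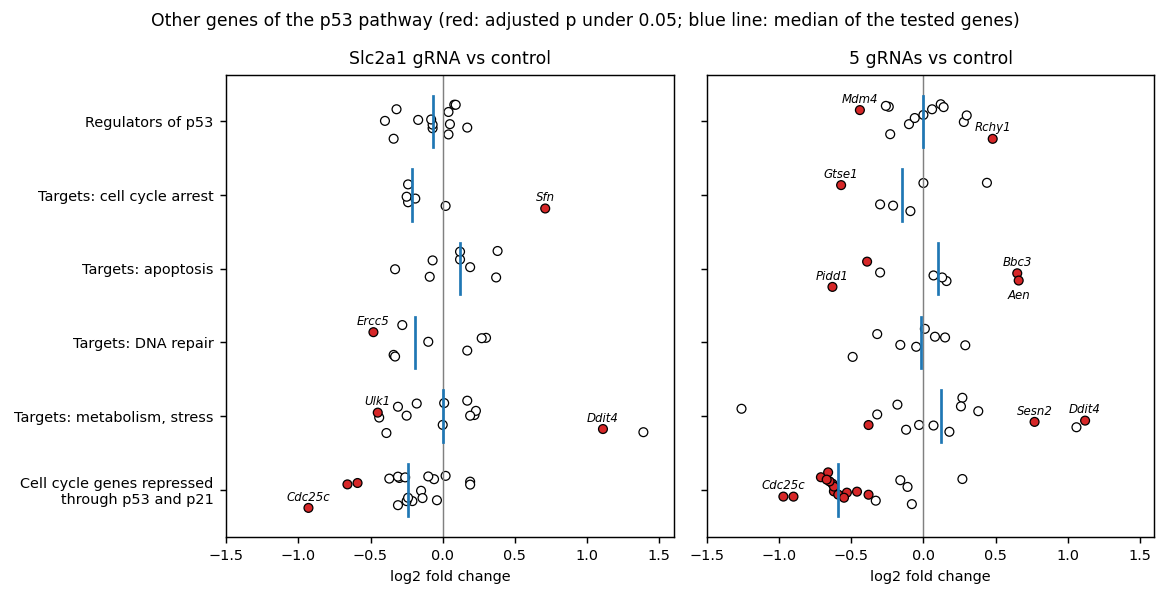
Log2 fold change (horizontal axis) of the other tested genes of the pathway in the Slc2a1 (left) and Slc2a1/3/5/6/8 (right) cultures against the control, 1 point a gene, red past an adjusted p of 0.05, with a blue line at the median of each list. Targets lie on both sides of 0, whereas 14 of 19 cell cycle genes are red and below 0 on the right.

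Genes that p53 represses indirectly, through p21 and the DREAM complex, were read from a list of 20 cell cycle genes, 19 of them tested. With the Slc2a1/3/5/6/8 gRNAs 14 fell and none rose, where 7.44% of all genes tested fell, and the median log2 fold change of the 19 was -0.59. Among the Slc2a1 cultures 3 fell, where 2.39% of all genes fell, and the median was -0.24. *Cdkn1a* itself had a log2 fold change of -0.30 in each deleted population and did not pass the test. The study reports lower viability of cells without GLUT1. Any part of p53, of p21 or of cell growth in the lower levels of these cell cycle genes was not tested. *Cdc25c*, the phosphatase that activates CDK1 at mitosis, had 28.8, 30.9 and 21.1 normalized CPM in the control, 13.5, 15.1 and 13.2 in the Slc2a1 and 16.8, 13.3 and 11.0 in the Slc2a1/3/5/6/8 replicates. Its log2 fold changes were -0.93 (adjusted p = 0.00806 by edgeR) and -0.97 (adjusted p = 0.00144), with all deleted cultures below the control, and the first of these calls was lost without control replicate 2 (0.0638) or Slc2a1 replicate 2 (0.0691). Groups were wholly lower for 13% of all genes tested with the *Slc2a1* gRNA and 17.2% with the Slc2a1/3/5/6/8 gRNAs. In the Slc2a1/3/5/6/8 cultures *Cdc20*, an activator of the anaphase-promoting complex, fell by a log2 fold change of -0.71 (adjusted p = 0.00189), *Foxm1*, a transcription factor for mitotic genes, by -0.66 (adjusted p = 0.00242) and the mitotic kinase gene *Plk1* by -0.65 (adjusted p = 0.00298). In the Slc2a1 cultures *Ccnb2*, a mitotic cyclin, fell by -0.59 (adjusted p = 0.0298, and 0.0512 without the block) and *Cenpa*, the centromeric histone, by -0.66 (adjusted p = 0.0358, and 0.0639 without the block), and both calls were lost without any one control sample or Slc2a1 replicate 1 or 2 (0.0768 to 0.2). The count of 3 was 0 without control replicate 2 or Slc2a1 replicate 2, and 1 without control replicate 1 or 3 or Slc2a1 replicate 1. It was 8 with only the 2 groups compared, 1 without the block and 0 or 1 with limma on the 2 TPM scales. The count of 14 was 6 without control replicate 1, 7 without control replicate 2, 11 without control replicate 3 or Slc2a1/3/5/6/8 replicate 3, 13 without Slc2a1/3/5/6/8 replicate 1 and 6 with limma on TPM. On that scale the adjusted p was 0.0743 to 0.0795 for *Foxm1*, 0.0501 to 0.0532 for *Plk1*, 0.0749 to 0.075 for *Ccnb2* and 0.071 to 0.0713 for *Cenpa*, and 0.0598 for *Cdc25c* with the *Slc2a1* gRNA on log2(TPM + 1). *Cdk1* and *Aurkb* were lower in the Slc2a1/3/5/6/8 than in the Slc2a1 cultures, by log2 fold changes of -0.55 (adjusted p = 0.0396) and -0.49 (adjusted p = 0.0362), and without the block the adjusted p-values were 0.116 and 0.0617, with total count normalization 0.0697 and 0.0746, with only the 2 groups compared 0.0932 and 0.131, and with limma 0.427 to 0.449 and 0.325 to 0.329. The call of *Aurkb* was lost without any one of the 9 samples (0.0542 to 0.146), and that of *Cdk1* without any one sample other than Slc2a1/3/5/6/8 replicate 3 (0.0615 to 0.193). With DESeq2 7 of the listed genes were called between the deleted populations, and 5 with no filter on low counts.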

How the data were processed

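RNA of 9 samples was analysed, 3 of each population, grouped by their labels. The authors made cDNA with oligo-dT primers, sequenced paired reads and quantified them with Salmon (version 1.5.1 in the submitters' processing notes). They deposited, for each gene, an estimated count, a TPM value, and a length and effective length in bases. Salmon's annotation and settings are not given in the sources used here. Salmon divides reads between similar transcripts, which leaves overlapping genes uncertain. The 9 genes and the lists were chosen with earlier results of these data known.

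In R 4.3.3, the estimated counts were made whole by rounding and passed to edgeR 4.0.16 (TMM, filterByExpr, quasi-likelihood test, Benjamini-Hochberg adjusted p under 0.05). All 9 samples entered 1 fit, and the block was the replicate number, since a legend of the study states a paired test. Standard errors were derived from the F statistic. The fit was also tested on simulated data, and no result given here rests on that test. Correlations used log2 CPM with a prior count of 0.5. Alternatives were DESeq2 1.42.0, total count normalization, leaving out the replicate block, leaving out the filter, a minimum of 10 counts per sample, fitting the 2 groups alone, limma 3.58.1 on log2(TPM + 1) and log2(TPM + 0.1), and leaving out each sample. The same alternatives were applied, after the data were seen, to the cell cycle list and the named list genes. The genes named are the 9 members, up to 4 genes of each list and comparison with the smallest adjusted p past the threshold, and the 3 genes most correlated with *Trp53* and with *Cdkn1a*. Named besides are the targeted transporter genes, genes that overlap a member, and *Cdkn2a*, *Cd38* and *Tnfrsf17*, given with their low counts. Gene positions and exon overlap came from GENCODE M21 (GRCm38) and promoter sequences from RefSeq (GRCm38.p6).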

Additional observations from a re-analysis of the deposited data

Results flagged for a closer look

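The change of *Trp53inp1* against the shared control differed between the deleted populations. Its log2 fold change was -0.24 with the *Slc2a1* gRNA and 0.39 with the *Slc2a1/3/5/6/8* gRNAs, and the difference itself, tested in edgeR's quasi-likelihood fit with the replicate block, was 0.63 (95% interval 0.38 to 0.88, adjusted p = 0.016). The Slc2a1/3/5/6/8 culture was higher in 3 of 3 same-numbered pairs, and over the 17 alternatives the difference lay between 0.54 and 0.72, with adjusted p-values from 2.99e-06 to 0.157. Without the replicate block the adjusted p was 0.125, and deviations of same-numbered samples from their group means had correlations of -0.15, -0.11 and -0.04 between these populations, so that the numbers were not shown to pair them. The ranges of the populations overlapped.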

How the results depend on the processing

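Under the alternatives, the direction of every member called against the control was kept, and no member changed sign under total count normalization, which moved the median of all genes to -0.095 with the *Slc2a1* gRNA, -0.042 with the 5 gRNAs and 0.048 between the deleted populations. Members called with the *Slc2a1* gRNA numbered 4 with DESeq2 and with only the 2 groups compared, 0 with limma on either pseudocount, and 0 to 2 without 1 sample. With the 5 gRNAs they numbered 4 with DESeq2, 1 with total count normalization, 1 with only the 2 groups compared, 0 with limma, and 0 to 4 without 1 sample. Between the deleted groups they numbered 0 with only the 2 groups compared, 0 with limma, and 0 to 1 without 1 sample. The cause of these moves was not tested.

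Without the replicate block, members called numbered 0 with the *Slc2a1* gRNA, 1 with the 5 gRNAs and 0 between the deleted populations, and targets on the lists called between the deleted populations numbered 0. All genes called then numbered 534, 1885 and 129 in the 3 comparisons. As a check of the pairing, deviations of same-numbered samples from their group means had correlations of 0.22, 0.16 and 0.32 between *Slc2a1* gRNA and control, 0.19, -0.11 and 0.18 between 5 gRNAs and control, and -0.15, -0.11 and -0.04 between the deleted populations, so that the numbers pair the samples in the first of these comparisons alone.

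All genes called with the *Slc2a1* gRNA numbered 642 in the main analysis, 1255 with DESeq2, 1448 with no filter, 2268 with only the 2 groups compared, 0 and 52 with limma on log2(TPM + 1) and log2(TPM + 0.1), and 11 to 1291 without 1 sample. The share that was higher was 48.4%, and 23.9% of 737 with total count normalization. With the 5 gRNAs they numbered 2204, with 53.3% higher, 433 and 462 with limma, with 27.3 and 27.5% higher, 1963 with total count normalization, with 41.9% higher, and 631 to 2559 without 1 sample. In the comparison of the deleted populations they numbered 319, with 58.9% higher, 776 with DESeq2, 974 with no filter, 116 with only the 2 groups compared, 31 and 32 with limma, 295 with total count normalization, with 69.5% higher, and 42 to 383 without 1 sample. Listed targets called with the *Slc2a1* gRNA numbered 4, 11 with only the 2 groups compared, 0 and 1 with limma, and 1 to 6 without 1 sample. With the 5 gRNAs they numbered 8, 1 with limma on either pseudocount, and 4 to 10 without 1 sample. Between the deleted populations they numbered 1, 3 with DESeq2 and with no filter, 2 with at least 10 counts in every sample, 0 with only the 2 groups compared, 0 with limma, and 0 to 1 without 1 sample.

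Signs turned for log2 fold changes that did not pass the test in the main analysis. *Ccng1* with the *Slc2a1* gRNA was 0.04 without control replicate 2 and 0.10 without Slc2a1 replicate 2. *Zmat3* was -0.08 with the *Slc2a1* gRNA without Slc2a1 replicate 1, and with the 5 gRNAs it ranged from -0.02 to 0.40 as samples were left out, the ends being without Slc2a1/3/5/6/8 replicates 2 and 1. Between the deleted populations *Zmat3* was -0.01 with limma on log2(TPM + 0.1), -0.05 without Slc2a1 replicate 2 and -0.13 to 0.30 over the samples left out. *Cdkn1a* there was -0.01 with at least 10 counts in every sample and with only the 2 groups compared, -0.02 without Slc2a1 replicate 2 and -0.05 to 0.06 over the samples left out, and *Ei24* was -0.03 to 0.25. The transcript of *Slc2a1* with the *Slc2a1* gRNA was 0.04 without control replicate 1 and -0.41 without control replicate 2. *Phlda3* and, with 60 to 277 estimated counts a sample, *Fas* had the lowest counts of the members, and the part of depth in the *Fas* values was not tested.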
